A study of Homo sapiens with 12 samples.

Results

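T-HESC is a human endometrial stromal cell line of fibroblastic origin, immortalised with telomerase. The libraries described here are the 3 T-HESC cultures that received 15 µM AG-205 for 32 h and the 3 that received the DMSO solvent for the same time, 6 of the 12 RNA sequencing libraries of the series. The other 6 come from HEC-1A, a line from an endometrial adenocarcinoma with epithelial origin, under the same pair of treatments. AG-205 is a small molecule long used as a ligand of PGRMC1, a haem-binding membrane protein, and the comparison asks which transcripts change when it is added. By RT-qPCR, the study found that AG-205 still raised INSIG1, MSMO1 and HSD17B7 when siRNA lowered PGRMC1 or its whole family. Its authors conclude that AG-205 is not specific for PGRMC1. All 6 T-HESC libraries share one immortalised line, so the values concern that line and not endometrial stroma from several donors. The study's methods describe the RNA as coming from 3 independent culture experiments, and the labels number the libraries 1 to 3 in each group without saying that equal numbers share an experiment.

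Cells make cholesterol from acetyl-CoA through the mevalonate pathway, and the genes of its enzymes are switched on together. When membrane sterol is low, the escort protein SCAP carries the transcription factor SREBP-2 from the endoplasmic reticulum to the Golgi apparatus, where proteases release its active part. INSIG proteins hold SCAP back when sterol is plentiful, and INSIG1 is itself a target of the pathway. Fatty acid synthesis follows the related factor SREBP-1, and endometrial stromal cells also convert steroid hormones with enzymes of the 17β-hydroxysteroid dehydrogenase family.

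The 6 libraries held 11440359 to 15178276 counts assigned to genes. Levels are given as CPM, the counts of a gene relative to its library's total after TMM scaling for composition. VIM, an intermediate filament of mesenchymal cells, had 2779 to 7182 CPM, and 23 of 24 stromal markers passed the filter on low counts (TCF21 had no count in any library). The epithelial genes EPCAM and CDH1 stayed under 1 CPM in all 6 libraries, although the keratins KRT18 and KRT19 were present. In bulk RNA of this kind, fewer cells of a type and less RNA per cell cannot be told apart.

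One library stood apart from the rest and touches most of the results. On the first principal component, with 51.6% of the variance, AG-205 replicate 1 scored 89.3 and the other 5 libraries scored -37.9 to 2.77. Calls and the main lists are therefore also given without this library, and its own values are described after the genes.

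With all 6 libraries, 9 of 13753 genes tested were called higher with AG-205 and 0 lower (edgeR quasi-likelihood test, adjusted p under 0.05 and a change of more than 2-fold). These are 0.0654% and 0% of the genes tested, and 489 genes had an unadjusted p under 0.05 with a higher level and 234 with a lower level. DESeq2 called 100 higher and 15 lower of 29303 genes. The count depended on single libraries: leaving out the treated library numbered 1 gave 95 genes, the one numbered 3 gave 4 and the one numbered 2 gave 0, as did leaving out any 1 control. The 9 genes were MVD, SQLE, INSIG1, FDFT1, MSMO1, HSD17B14, FDPS, HMGCS1 and HSD17B7. Of these, 7 are enzymes of cholesterol synthesis, INSIG1 is a sterol regulator and HSD17B14 is a 17β-hydroxysteroid dehydrogenase.

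HMGCS1, which makes the HMG-CoA that enters the mevalonate pathway, had the largest fitted change of the 9. Its levels were 25.2, 27.5 and 26.3 CPM in the DMSO libraries and 209, 571 and 275 CPM in AG-205 replicates 1, 2 and 3. All 3 treated libraries lay far above the controls, with replicate 2 the highest. The log2 fold change was 3.74 (SE 0.42, adjusted p = 0.0368 from edgeR). MVD, which decarboxylates mevalonate diphosphate, had 58.6, 51.3 and 47.5 CPM with DMSO and 352, 392 and 374 CPM with AG-205. The treated libraries were close to each other, and MVD had the smallest p-value of all genes tested. Its change was 2.83 on the log2 scale (SE 0.23, adjusted p = 0.0236 from edgeR).

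FDPS, which builds farnesyl diphosphate, rose from 44.8, 44.7 and 46.0 CPM to 176, 245 and 169 CPM, a change of 2.12 on the log2 scale (SE 0.24, adjusted p = 0.0368 from edgeR). FDFT1, which joins farnesyl units into squalene at the first step committed to sterols, had 129, 146 and 145 CPM with DMSO and 849, 853 and 646 CPM with AG-205. Neither gene had a treated library near the control range. SQLE, which oxidises squalene, went from 31.9, 41.5 and 40.6 CPM to 190, 249 and 194 CPM. FDFT1 and SQLE had log2 fold changes of 2.48 (SE 0.25) and 2.48 (SE 0.24), both with an edgeR adjusted p of 0.0328.

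MSMO1, which removes methyl groups from the sterol nucleus, had 55.9, 67.7 and 51.6 CPM with DMSO and 711, 673 and 340 CPM with AG-205, with the third treated library lowest (log2 fold change 3.30, SE 0.35, edgeR adjusted p = 0.0368). HSD17B7, which acts in the same removal and also reduces oestrone to oestradiol, had 4.36, 4.06 and 4.34 CPM with DMSO and 24.1, 34.1 and 18.1 CPM with AG-205 (log2 fold change 2.58, SE 0.30, edgeR adjusted p = 0.043). HSD17B14, which oxidises oestradiol in the opposite sense, had 6.41, 4.87 and 4.77 CPM with DMSO and 28.2, 27.8 and 23.0 CPM with AG-205. The treated groups of these genes did not overlap the controls, and HSD17B14 changed by 2.29 on the log2 scale (SE 0.25, adjusted p = 0.0368 from edgeR). INSIG1 had 107, 131 and 74.4 CPM with DMSO and 940, 1027 and 772 CPM with AG-205, and its change was 3.13 on the log2 scale (SE 0.31, adjusted p = 0.0328 from edgeR).

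**Figure D1:**
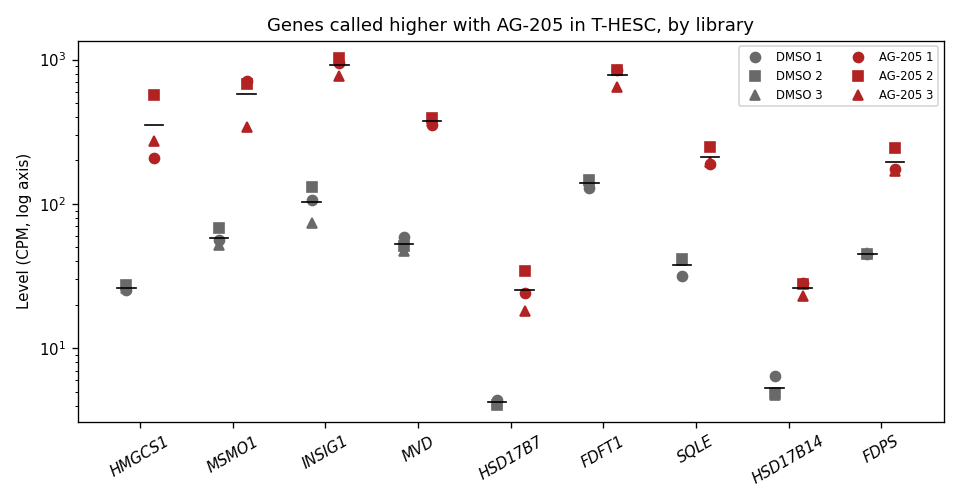
Level in CPM (log axis) of the 9 genes called higher, in the 3 DMSO libraries (grey) and the 3 AG-205 libraries (red). Marker shapes give the replicate and black lines the group means. Every red point lies above every grey point of its gene, and for MVD the AG-205 libraries run from 352 to 392 CPM.

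The promoter sequences of 4 called genes, the sterol regulator INSIG1 and enzymes from early, middle and late steps, are shown because these genes moved together. They are from RefSeq (GRCh38.p14). Each runs 5′ to 3′ on the strand of its gene, from 250 bases before to 50 after the annotated start, and capitals mark CCAAT on either strand. MVD lies at chr16:88663042-88663341 (minus strand), HMGCS1 at chr5:43313363-43313662 (minus), INSIG1 at chr7:155297628-155297927 (plus) and MSMO1 at chr4:165327419-165327718 (plus).
HMGCS1: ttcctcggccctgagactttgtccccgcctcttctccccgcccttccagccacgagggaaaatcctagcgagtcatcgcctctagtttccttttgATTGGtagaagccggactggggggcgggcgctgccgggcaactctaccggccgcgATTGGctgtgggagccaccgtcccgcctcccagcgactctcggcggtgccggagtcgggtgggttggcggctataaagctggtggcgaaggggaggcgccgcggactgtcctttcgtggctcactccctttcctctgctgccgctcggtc
MVD: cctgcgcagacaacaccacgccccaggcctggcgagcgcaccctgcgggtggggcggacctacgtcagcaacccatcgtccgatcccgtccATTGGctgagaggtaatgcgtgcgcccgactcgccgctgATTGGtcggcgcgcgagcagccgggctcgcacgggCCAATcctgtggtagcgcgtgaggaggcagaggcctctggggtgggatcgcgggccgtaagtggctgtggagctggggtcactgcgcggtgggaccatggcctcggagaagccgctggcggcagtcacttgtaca
MSMO1: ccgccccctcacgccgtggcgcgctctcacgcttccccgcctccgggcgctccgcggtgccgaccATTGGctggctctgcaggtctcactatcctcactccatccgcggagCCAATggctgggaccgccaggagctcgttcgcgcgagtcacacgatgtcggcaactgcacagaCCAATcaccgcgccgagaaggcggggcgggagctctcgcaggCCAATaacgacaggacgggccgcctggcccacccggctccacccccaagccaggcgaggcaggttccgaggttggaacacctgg
INSIG1: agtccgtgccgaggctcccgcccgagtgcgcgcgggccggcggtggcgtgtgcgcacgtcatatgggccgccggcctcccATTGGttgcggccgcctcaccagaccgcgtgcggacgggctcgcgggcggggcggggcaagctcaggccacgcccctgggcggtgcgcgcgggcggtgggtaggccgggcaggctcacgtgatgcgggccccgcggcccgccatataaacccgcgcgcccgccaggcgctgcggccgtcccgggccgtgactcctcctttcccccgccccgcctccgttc
RefSeq windows matched 6 of the 9 called genes. CCAAT, the box bound by NF-Y, was in all 6 of them, with 4 copies in MSMO1 and 3 in MVD, and in 36.8% of the 10333 tested genes with a window. GGGCGG, the GC box bound by Sp1, was also in all 6 and in 70.4% of the windows of tested genes. The sterol element letters TCACCCCAC and TCACGCCAC were in none of the 6 and in 0.358% and 0.242% of tested windows. Only these exact letters were searched, so their absence does not show that a gene lacks a sterol element. Both strands were searched, matches of different motifs could share bases, and a match is a description of letters in this window.

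Across the 21 cholesterol biosynthesis enzymes on the list, 7 were called higher and 0 lower, 19 had an unadjusted p under 0.05 with a higher level, and the median log2 fold change was 2.38 against 0.02 for all genes tested. In 18 of the 21, every AG-205 library lay above every DMSO library, a pattern that 5.87% of all tested genes had. The enzymes over 2-fold above the DMSO mean numbered 16 in AG-205 replicate 1, 20 in replicate 2 and 19 in replicate 3. The list repeats genes that the study reported on from these libraries, so its count is not independent evidence of direction. Without AG-205 replicate 1, 18 of the 21 were called higher and the median was 2.42. Over all genes tested, the shares called higher were 0.0654% with all 6 libraries and 0.674% without replicate 1. PMVK, a kinase of the mevalonate pathway, had the smallest log2 fold change of the 21 with all 6 libraries. It was not called in either fit (edgeR adjusted p = 0.993 and 0.80), and its sign changed without replicate 1.

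The enzymes divided by how AG-205 replicate 1 compared with the other 2 treated libraries. DHCR7, the last reductase of cholesterol synthesis, had 47.2, 43.3 and 48.0 CPM with DMSO and 102, 338 and 365 CPM with AG-205 replicates 1 to 3. LSS, which closes the sterol rings, had 103, 99.1 and 122 CPM with DMSO and 144, 446 and 491 CPM with AG-205. In both genes replicate 1 lay above the controls but well under replicates 2 and 3. CYP51A1, the lanosterol demethylase, had 5.85 CPM in replicate 1, inside the DMSO range of 3.96 to 9.89 CPM, and 42.7 and 46.6 CPM in the other treated libraries. None of the 3 was called with all 6 libraries, and all 3 were called without replicate 1, with log2 fold changes of 2.93 for DHCR7, 2.12 for LSS and 2.88 for CYP51A1.

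IDI1, EBP and SC5D behaved otherwise. IDI1, which isomerises isopentenyl diphosphate, had 400 CPM in replicate 1, as in replicate 2, and 173 CPM in replicate 3. EBP, a sterol isomerase, was highest in replicate 1 with 193 CPM, against 137 and 104 CPM in the others and 36.8 to 40.7 CPM with DMSO. With edgeR, the adjusted p of IDI1 was 0.0574, that of ACAT2, which condenses acetyl-CoA at the start of the route, 0.0597 and that of EBP 0.0907. In 5 enzymes, AACS among them, replicate 1 lay over 2-fold under the mean of the other treated libraries. Their median exon length was 6878 bases, against 4300 bases in the other 16. Median GC content was 54.1% in the 5 and 46.7% in the 16. The ranges of GC content overlapped, with 41.05% to 58.14% in the 5 and 36.9% to 64.18% in the 16. The part of length and GC content in this division was not tested.

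**Figure D2:**
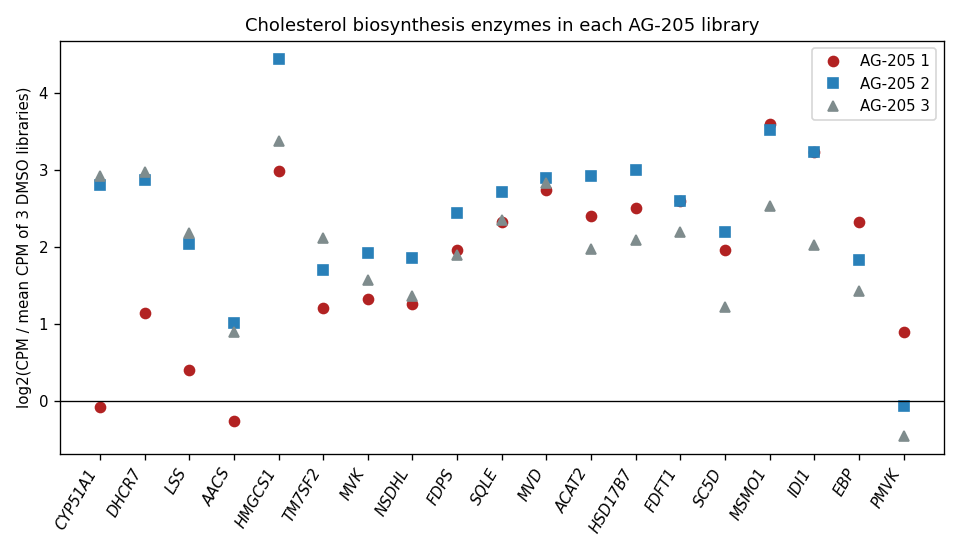
log2 of the CPM in each AG-205 library over the mean CPM of the 3 DMSO libraries, for 19 of the 21 enzymes on the list, ordered by how far AG-205 replicate 1 (red circles) lay from replicates 2 (blue squares) and 3 (grey triangles). On the left, CYP51A1, DHCR7 and LSS are low in replicate 1, and on the right MSMO1, IDI1 and EBP are not.

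Without AG-205 replicate 1, the 2 remaining treated libraries against 3 controls gave 95 genes called higher and 4 lower of 14088 tested, 0.674% and 0.0284%. All 9 genes called with 6 libraries were among the 95. Replicate 1 itself, which had no part in that fit, lay above all 3 DMSO libraries in 77 of the 94 genes with a level in the 6-library table. The same position was found for 39.8% of all tested genes in that library, and the same DMSO libraries enter both comparisons. Replicate 1 was singled out from these data. Calls and adjusted p-values from every fit without it rest on 2 treated T-HESC libraries and are not independent of that choice.

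Genes of fatty acid synthesis and desaturation formed one group there. SCD, the stearoyl-CoA desaturase, had 150, 151 and 174 CPM with DMSO and 607, 1452 and 1286 CPM with AG-205, and its log2 fold change without replicate 1 was 3.11 (edgeR adjusted p = 0.000414). All 3 treated libraries lay above the controls. FASN, fatty acid synthase, had 260, 210 and 277 CPM with DMSO and 218, 1188 and 1426 CPM with AG-205, so replicate 1 sat within the control range. FADS2, which desaturates polyunsaturated fatty acids, had 177, 155 and 161 CPM with DMSO and 235, 654 and 735 CPM with AG-205. FASN and FADS2 had log2 fold changes of 2.39 and 2.08 without replicate 1, both with an edgeR adjusted p of 0.00208. ACSS2, which activates acetate, had 38.3 CPM in replicate 1 and 112 and 94.9 CPM in the other treated libraries. Of 15 members of the list tested, 5 were called higher without replicate 1 and 0 with all 6 libraries, where the median log2 fold change was 0.96. The shares called higher over all genes tested were 0.674% and 0.0654%, in the same order.

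Sterol sensing and transport genes had a similar division. SREBF2, which encodes SREBP-2, had 135, 123 and 145 CPM with DMSO, 127 CPM in AG-205 replicate 1 and 334 and 473 CPM in replicates 2 and 3. NPC1, which exports cholesterol from lysosomes, had 21.3, 23.9 and 42.5 CPM with DMSO and 39.0, 234 and 164 CPM with AG-205. In both genes replicate 1 overlapped the controls and the other treated libraries did not. STARD4, a sterol carrier, had 15.5, 13.0 and 18.1 CPM with DMSO and 63.7, 76.7 and 40.9 CPM with AG-205, with no overlap (edgeR adjusted p = 0.105 with all 6 libraries). Of the 17 members tested, 1 was called higher with all 6 libraries and 8 without replicate 1, against 0.0654% and 0.674% of all genes tested.

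Some lysosomal genes were called higher as well. NEU1, the lysosomal sialidase, had 28.7, 32.6 and 32.7 CPM with DMSO and 69.8, 145 and 107 CPM with AG-205. GPNMB, a glycoprotein of lysosomes and melanosomes, had 35.5, 36.8 and 37.7 CPM with DMSO and 78.4, 186 and 114 CPM with AG-205. No treated library overlapped the controls for either gene. SQSTM1, an autophagy receptor, had 401, 457 and 503 CPM with DMSO and 721, 1300 and 1812 CPM with AG-205. Without replicate 1 their log2 fold changes were 2.01, 2.04 and 1.78, with edgeR adjusted p-values of 0.00298, 0.00644 and 0.0101, and with all 6 libraries none was called. The lysosome list had 24 members tested, of which 0 were called with all 6 libraries and 3 without replicate 1, and its median log2 fold change was 0.43. Among all genes tested, 0.0654% and 0.674% were called higher in these fits. CTSK, cathepsin K, which is not on that list, had 126, 125 and 99.7 CPM with DMSO and 248, 432 and 283 CPM with AG-205.

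Genes of other roles were called higher without replicate 1. GDF15, a secreted stress cytokine, had 26.8, 23.8 and 29.2 CPM with DMSO and 88.8, 190 and 208 CPM with AG-205 (log2 fold change 2.90, edgeR adjusted p = 0.000414). EGR2, an immediate early transcription factor, had 1.06, 0.665 and 0.434 CPM with DMSO and 5.44, 6.88 and 11.4 CPM with AG-205. Its treated libraries all lay above the controls, and the log2 fold change was 3.62 (edgeR adjusted p = 0.0069). MMP14, a membrane-bound collagenase, had 710, 698 and 790 CPM with DMSO and 1495 and 1553 CPM in replicates 2 and 3, but 441 CPM in replicate 1, which was under every control. Its log2 fold change was 0.67 with all 6 libraries (edgeR adjusted p = 0.993) and 1.06 without replicate 1 (edgeR adjusted p = 0.0463).

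No gene was called lower with all 6 libraries, and 727 genes (5.29%) had every AG-205 library under every DMSO library. The lower genes with the smallest p-values included ADRA1D, the α1D adrenoceptor, with 12.2, 11.1 and 8.85 CPM with DMSO and 1.71, 3.31 and 2.34 CPM with AG-205 (log2 fold change -2.12, SE 0.33, edgeR adjusted p = 0.112). RHOB, a small GTPase of endosomes and actin, had 180, 176 and 247 CPM with DMSO and 78.9, 89.0 and 81.9 CPM with AG-205, with no overlap (-1.27, SE 0.23, edgeR adjusted p = 0.171). F3, tissue factor, the starter of coagulation, had 148, 170 and 183 CPM with DMSO and 84.4, 50.9 and 52.8 CPM with AG-205. The treated libraries lay under the controls, and the edgeR adjusted p was 0.198 with all 6 libraries and 0.00667 without replicate 1, where the log2 fold change was -1.68.

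BMP4, a growth factor of the BMP family, had 4.29, 5.46 and 3.38 CPM with DMSO and 1.06, 0.714 and 1.39 CPM with AG-205. OSR1, a mesenchymal transcription factor, had 12.4, 18.8 and 30.6 CPM with DMSO and 3.98, 7.40 and 5.05 CPM with AG-205. PCDH7, a protocadherin, had 182, 155 and 194 CPM with DMSO and 74.9, 88.7 and 101 CPM with AG-205. None of the 3 had overlapping groups, and their edgeR adjusted p-values were 0.212, 0.302 and 0.347. MIR503HG, the host transcript of miR-503, had 29.8 to 39.4 CPM with DMSO and 13.8 to 17.3 CPM with AG-205. Without replicate 1 the 4 genes called lower were F3, KRT18, ADRA1D and LHX9. KRT18, a keratin, had 165, 147 and 96.5 CPM with DMSO and 88.2, 22.3 and 36.9 CPM with AG-205, so that replicate 1 was the closest to the controls. LHX9, a LIM homeobox factor, had 8.39, 8.42 and 11.5 CPM with DMSO and 5.03, 3.18 and 2.85 CPM with AG-205.

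AG-205 replicate 1 was singled out from these data, so what follows describes it without a test. In that library 620 of 13753 genes (4.51%) lay over 2-fold above the highest of the other 5 libraries and 938 (6.82%) over 2-fold under the lowest. The same counts were 0 to 71 above and 4 to 114 below for each of the other libraries. Its total of 12800067 counts and 21580 genes with a count were within the range of the other 5.

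**Figure D3:**
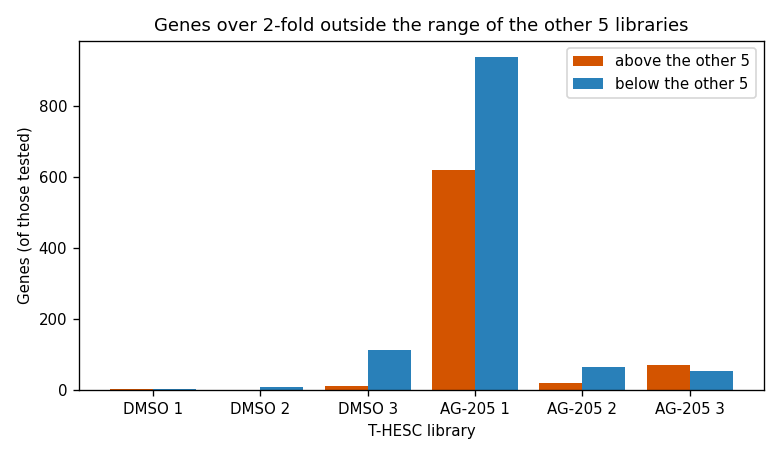
Number of tested genes in each T-HESC library that lay over 2-fold above (orange) or below (blue) the range of the other 5 libraries. AG-205 replicate 1 had 620 and 938 such genes, and no other library had more than 71 above or 114 below.

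MALAT1, a nuclear long non-coding RNA, took 2.04% of the counts of replicate 1 and 0.129% to 0.513% in the other 5 libraries, and its level was 21155 CPM against 1279 to 5143 CPM. NEAT1, another nuclear RNA, had 1096 CPM against 183 to 340 CPM. Cytosolic ribosomal protein genes took 7.53% of counts in replicate 1 and 3.24% to 4.22% elsewhere. Of 82 such genes tested, 36 lay over 2-fold above the other 5 libraries and 0 below, and 8 of 10 genes for subunits of complex IV of the respiratory chain did likewise. So did 10 of 35 genes for subunits of complex I and 13 of 75 mitochondrial ribosomal protein genes, against 4.51% of all genes tested. These families were chosen after their values were seen. Mitochondrial transcripts took 1.70% of counts in replicate 1 and 2.00% to 2.67% in the others.

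On the low side of replicate 1, over 2-fold under the other 5 libraries, were 6 of 30 matrix genes, 4 of 17 adhesion receptors and 0 of 30 growth factor receptors and ligands. The share over all genes tested was 6.82%. Other lists had 3 of 26 DNA replication genes and 0 of 28 mitosis genes there. The stromal markers had 4 of 23, COL1A1, COL5A1, COL6A1 and FBN1, which are all among the matrix genes already counted. HSPG2, the basement membrane proteoglycan perlecan, had 37.6 CPM in replicate 1 and 386 to 1086 CPM in the other 5 libraries. BCL9L, a co-activator of β-catenin, had 5.12 CPM against 67.9 to 180 CPM. TERT, the telomerase gene with which the line was immortalised, had 115 CPM against 1415 to 2458 CPM. ADGRA2, an adhesion receptor, had 15.7 CPM against 151 to 323 CPM. Of 21 protocadherin γ genes tested, 16 lay over 2-fold under the other libraries, but these genes share their last exons, so reads counted to one may belong to another. FABP4, a fatty acid carrier, and LDHB, a lactate dehydrogenase subunit, were on the high side, with 793 CPM against 74.1 to 177 CPM and 58.3 CPM against 5.85 to 13.9 CPM.

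The 938 low genes had a median GC content of 57.0% and a median exon length of 6075 bases, the 620 high genes 44.9% and 2429 bases, and all tested genes 47.8% and 5120 bases. With the genes in 5 equal bins of GC content, the median log2 difference of replicate 1 from the mean of the other 5 libraries went from 0.38 in the lowest bin to -0.38 in the highest. Over 5 bins of exon length it went from 0.54 to -0.19. With 4 bins of each, crossed, genes lowest in both had a median of 0.90 and those highest in both -1.05. AG-205 replicate 3 had the opposite relation to GC content, from -0.36 to 0.37. The cause of these differences was not tested.

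**Figure D4:**
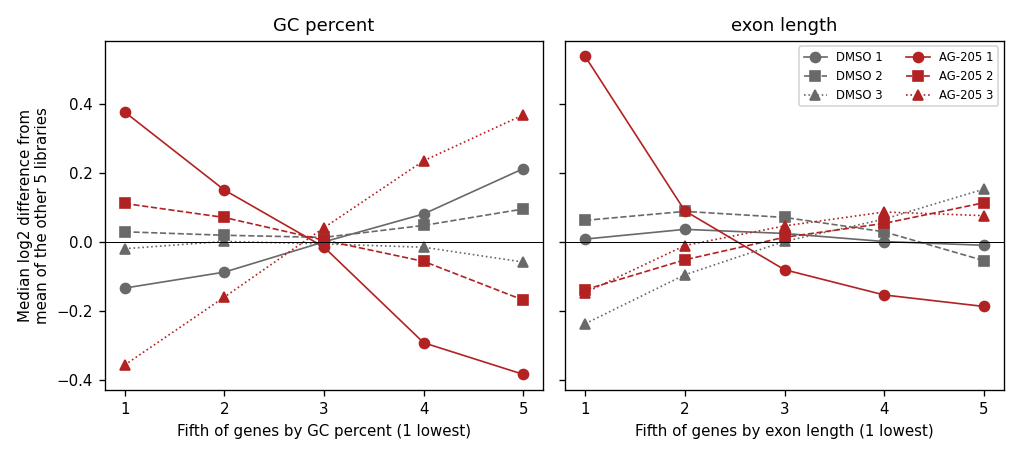
Median log2 difference of each library from the mean of the other 5, over 5 equal bins of the tested genes by GC content (left) and by exon length (right). Red lines are AG-205 and grey lines DMSO libraries. AG-205 replicate 1 falls from 0.38 to -0.38 with GC content and from 0.54 to -0.19 with length, whereas AG-205 replicate 3 rises with GC content.

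When a trend on GC content and exon length was removed from each library, 20 genes were called higher and 1 lower. Of the 21 cholesterol enzymes, 12 were then called, and the gene called lower was F3. The spread between replicates, as a biological coefficient of variation, was 33.6% for the 6 libraries, 28.8% after this correction and 24.0% without replicate 1. In HEC-1A it was 10.1%, and the median standard error of a log2 fold change was 0.33 in T-HESC and 0.13 in HEC-1A.

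The cytokine and interferon lists differed widely between libraries of the same treatment. The 18 tested cytokine and inflammatory genes had median log2 levels, relative to the DMSO mean, of 0.94, 0.83 and -1.65 in the 3 DMSO libraries and of 2.02, -1.55 and 2.64 in the 3 AG-205 libraries. CXCL8, the neutrophil attractant interleukin-8, had 412, 569 and 5.03 CPM with DMSO and 2619, 9.41 and 1041 CPM with AG-205. ICAM1, a leukocyte adhesion receptor, had 156, 131 and 11.2 CPM with DMSO and 83.0, 16.5 and 877 CPM with AG-205. In both genes DMSO replicate 3 and AG-205 replicate 2 were low and the other 4 libraries high. The 25 interferon response genes followed the same libraries, with -1.18 in DMSO replicate 3, -1.19 in AG-205 replicate 2 and 1.92 in AG-205 replicate 3. No gene of either list was called, with or without replicate 1. The median log2 fold change with all 6 libraries was 1.40 for the cytokine list and 0.73 for the interferon list. How much of this goes with AG-205 and how much with single libraries was not tested.

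Matrix genes were lowest in AG-205 replicate 1. The 30 genes for matrix and its assembly had a median of -1.18 there, -0.71 in replicate 2 and 0.20 in replicate 3, and 0 were called. COL1A1, the main chain of type I collagen, had 9995, 6564 and 6414 CPM with DMSO and 1274, 3577 and 5904 CPM with AG-205. FN1, fibronectin, had 5982 to 12003 CPM with DMSO and 4241, 9228 and 10193 CPM with AG-205. The median log2 fold change of the matrix list was -0.40 with all libraries and -0.15 without replicate 1.

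DNA replication genes had medians of -0.48, -0.44 and -0.70 in the 3 treated libraries, 0 of 26 were called, and the list's median log2 fold change was -0.56. In 10 of the 26, every AG-205 library lay under every DMSO library, a pattern that 5.29% of all tested genes had. The 28 mitosis genes had a median of 0.02. The 20 tested genes of the integrated stress response had 0.33 and those of the unfolded protein response 0.02, with 0 called in either list. The immediate early genes had a median of 0.47, the NRF2 targets 0.28, the decidualization genes 0.28, the p53 targets 0.27 and the contractile genes -0.50, and none of these lists had a called gene with all 6 libraries. Every AG-205 library lay above every DMSO library in 8 of 20 integrated stress response genes and 1 of 18 unfolded protein response genes. The same was found in 7 of 23 immediate early genes, 4 of 20 p53 targets and 5.87% of all genes tested. The reverse position was found in 0, 2, 1 and 1 genes of these lists, in the order named. Without AG-205 replicate 1, 1 gene was called higher among the p53 targets (GDF15), 1 among the NRF2 targets (HMOX1, haem oxygenase) and 1 among the immediate early genes (EGR2), and 0 in the decidualization and contractile lists. The share called higher over all genes tested was 0.674% in that fit.

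**Figure D5:**
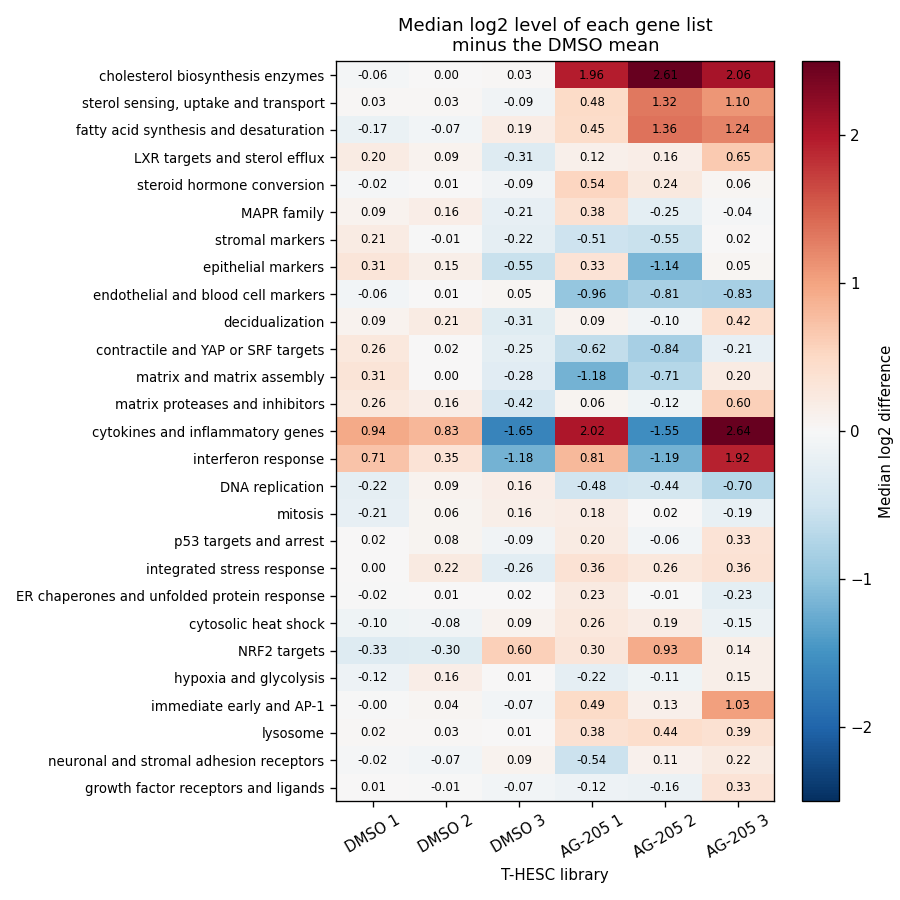
Median log2 level of the tested members of each of the 27 gene lists in each T-HESC library, relative to the mean of the 3 DMSO libraries. The cholesterol enzymes are between 1.96 and 2.61 in the 3 AG-205 libraries, whereas the cytokine and interferon lists are low in DMSO replicate 3 and AG-205 replicate 2.

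PGRMC1 and its relatives, the MAPR family of haem-binding proteins, were not called. PGRMC1 had 134, 153 and 154 CPM with DMSO and 230, 215 and 151 CPM with AG-205, so the groups overlapped (log2 fold change 0.43, SE 0.24, edgeR adjusted p = 0.993). PGRMC2 had 188, 175 and 87.2 CPM with DMSO and 154, 93.0 and 111 CPM with AG-205 (-0.33, SE 0.34, edgeR adjusted p = 0.993). NENF, or neudesin, had 57.9 CPM in AG-205 replicate 1 and 23.4 to 33.8 CPM in the other 5 libraries, and CYB5D2, or neuferricin, had 14.5 to 20.9 CPM in all 6. AKR1C1, a reductase of progesterone, had 1.39, 2.95 and 24.8 CPM with DMSO and 19.3, 70.9 and 6.22 CPM with AG-205 (log2 fold change 1.74, SE 1.15, edgeR adjusted p = 0.993), with a wide spread inside both groups.

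In HEC-1A the same contrast called 363 genes higher (2.57%) and 28 lower (0.198%). All 9 genes called higher in T-HESC were called higher there too, and their median log2 fold change in HEC-1A was 2.16. Of the 95 called without AG-205 replicate 1, 82 were tested in HEC-1A and 42 of them were called higher. A test of the difference between the effects in the lines, over all 12 libraries, called 7 genes with a higher effect in T-HESC (0.0434%) and 21 with a lower effect (0.13%), none of them a cholesterol enzyme. The fit behind that test took a common spread per gene for both lines, so its p-values do not allow for the larger spread in T-HESC.

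SCIN, an actin-severing protein, had 43.1, 50.3 and 55.9 CPM with DMSO and 180, 148 and 126 CPM with AG-205 in T-HESC, with no overlap. Its effect exceeded that in HEC-1A by 1.76 on the log2 scale (edgeR adjusted p = 0.0124). TFPI2, an inhibitor of serine proteases, had 416, 482 and 271 CPM with DMSO and 1240, 1030 and 1137 CPM with AG-205, and its difference from HEC-1A was 1.85 (edgeR adjusted p = 0.0346). The effects on F3, RHOB and BMP4 were lower in T-HESC than in HEC-1A by log2 differences of -1.76, -1.83 and -2.44, with edgeR adjusted p-values of 0.0281, 0.0139 and 0.0485. Without AG-205 replicate 1 the differences were 1.64 for SCIN, 1.80 for TFPI2, -2.02 for F3, -1.77 for RHOB and -2.44 for BMP4, and all 5 were still called.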

How the data were processed

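Total RNA of T-HESC and HEC-1A cultures was sequenced. Poly(A) RNA was read on an Illumina HiSeq. The authors used Trimmomatic (0.38) for trimming, HISAT2 (2.1.0) for alignment to GRCh38 and featureCounts of Subread (2.0.0) for counting, per the submitters' processing notes and the study's methods, and deposited raw counts per gene for 58735 genes. Whether strand was used and how reads matching several places were treated is not given in the sources used here.

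Counts were filtered (filterByExpr), scaled by TMM and tested with the edgeR (4.0.16) quasi-likelihood test with robust estimation, on the 6 T-HESC libraries and without a block. The libraries held 11440359 to 15178276 counts. Genes were called at a Benjamini-Hochberg adjusted p under 0.05 and over 2-fold change. The study used DESeq2, here (1.42.0) an alternative. log2 levels used a prior count of 2. The difference between lines came from an interaction term over all 12 libraries. GENCODE 44 named 58207 genes and gave exon length and GC content, and RefSeq gave promoters. With 3 libraries a group, an exact permutation of 1 value cannot go under a p of 0.1. The fit was tested on simulated data with 4-fold changes. There edgeR recovered 156 of 196 changed genes tested, with 13 false calls, and DESeq2 recovered 180 of 200, with 38 false calls.

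The genes named were all called genes, the called genes with the smallest p without AG-205 replicate 1 (15 higher, up to 10 lower), the 10 lower genes with the smallest p, the 12 genes farthest above and below in AG-205 replicate 1, up to 4 members of each list, and INSIG1, MSMO1, HSD17B7, HSD17B14, AKR1C1 and the MAPR genes. MALAT1, NEAT1, FABP4, LDHB, CTSK, EGR2, SCIN, TFPI2, ACSS2, SREBF2, FN1, VIM, EPCAM, CDH1, TCF21 and other cholesterol enzymes lie outside this rule and were chosen after their values were seen. The members and the 27 gene lists were chosen with earlier results of these data known. Values of some genes are not reported here.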

Additional observations from a re-analysis of the deposited data

Results flagged for a closer look

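The effect of AG-205 was called different between the lines, by the interaction term of the edgeR fit over all 12 libraries, for 5 of the genes described. Within T-HESC, none of the 5 was called with all 6 libraries. On the log2 scale, T-HESC minus HEC-1A, the difference was 1.76 for SCIN, 1.85 for TFPI2, -1.76 for F3, -1.83 for RHOB and -2.44 for BMP4. The lines differ in their origin, and the spread between libraries was larger in T-HESC, with a biological coefficient of variation of 33.6% against 10.1%. That fit took a common spread per gene for both lines, so its adjusted p-values do not allow for this difference in spread. Groups of 3 libraries are too small for the test of a single distant sample, so AG-205 replicate 1 is described by its values in the report.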

How the results depend on the processing

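The 9 genes called higher became 100 with DESeq2, 97 without the filter on low counts, 228 with library quality weights, 133 in the fit of all 12 libraries and, as an alternative chosen after seeing the data, 20 with the GC and length correction. The genes called lower went from 0 to 15, 17, 94, 27 and 1 under the same settings, and the cholesterol enzymes from 7 to 19, 18, 19, 18 and 12. Leaving out 1 library in turn gave 0 to 95 genes higher, 0 to 4 lower and 0 to 18 enzymes. The highest values came without AG-205 replicate 1, and the call of every gene was lost without AG-205 replicate 2 or without any 1 DMSO library, when 397 to 659 genes had an unadjusted p under 0.05 (edgeR). Without AG-205 replicate 3, 4 genes and 4 enzymes were called. RLE size factors gave 9 genes, and no robust estimation of the spread, also chosen after seeing the data, gave 11. For the difference between the lines, the 7 higher and 21 lower genes became 41 and 43 without AG-205 replicate 1. The fitted direction was the same in all alternatives run for the 44 genes followed through them, which include each gene whose fold change is printed. It was not for PMVK or for genes given by levels alone: without AG-205 replicate 1 the sign changed for PMVK, NENF, VIM, FN1, MALAT1, LDHB, HSPG2, BCL9L, ADGRA2 and TERT, and with another library left out for ICAM1 and CYB5D2. The cause of these shifts was not tested. The replicate block gave 17 genes higher and 0 lower, but the same numbers did not deviate together (correlations 0.22, -0.53 and -0.043), so they were not taken as pairs. The highest correlation was 0.69, between AG-205 replicate 2 and DMSO replicate 3, which are also the libraries low in cytokine and interferon genes. Whether they share an experiment is not given in the labels.

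A gene without a call is not shown to be unchanged, since the median standard error of a log2 fold change was 0.33 in T-HESC.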
